A study of Mus musculus with 17 samples.

Results

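The effect of the APP/PS1 genotype on gene expression in cortical microvessels was compared between mice that had all received an inhibitor of the NADPH oxidase NOX2. The comparison set the 5 libraries of APP/PS1 mice with inhibitor against the 5 libraries of wild-type (WT) mice with inhibitor, chosen by their genotype and treatment labels, which is 10 of the 17 libraries of the series. All genes that passed an expression filter were tested, 18753 of 42687 in the table. The mice were 10 to 11 months old. Those compared had been injected intraperitoneally with gp91-ds-tat, at 10 mg/kg every 2 days for 2 weeks, so that both groups carried the treatment and differed by genotype. The remaining 7 libraries came from mice given the control peptide sgp91-ds-tat on the same schedule, 2 of APP/PS1 and 5 of WT. The labels write the genotypes as APP and WT and the treatments as NOX2 and SC. Here NOX2 is read as the inhibitor, and SC as its control. The labels name neither the APP/PS1 line nor the promoter of its transgenes, and they do not say whether each library came from a different mouse. The p-values therefore measure the spread between these libraries, which may be technical in part.

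APP/PS1 mice carry transgenes, among them a mutant human form of the amyloid precursor protein, and deposit amyloid plaques in the cortex with age. In a widely used line of this name the transgenes are driven by the promoter of the mouse prion protein gene. Microglia, the resident macrophages of the brain, gather around plaques and take up a state with high expression of lysosomal, phagocytic and lipid-handling genes, part of which depends on the receptor TREM2 and its adaptor TYROBP. NOX2 is a membrane enzyme of phagocytes and of some vascular cells that makes superoxide. Its catalytic subunit gp91phox is encoded by Cybb, and gp91-ds-tat is a peptide that blocks the assembly of the enzyme without removing it. Microvessel preparations hold endothelial cells and pericytes, and also the astrocyte endfeet, microglia and perivascular macrophages attached to them. The title of the series names vascular oxidative stress and neutrophils arrested in capillaries, so vascular, leukocyte and oxidative stress genes are described beside the genes that differed.

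Total counts of the 10 libraries ran from 7316503 to 15271804, with a median of 11947291. Levels are given as CPM, the counts of a gene per M (mega) counts of the library after TMM scaling of its size, and differences as log2 changes, APP/PS1 minus WT. In CPM per kilobase of exon, the median was 32.2 for 20 blood-brain barrier genes, 23.7 for 15 pan-endothelial genes and 12.03 for 18 pericyte and smooth muscle genes. It was 6.33 for 12 homeostatic microglia markers, and 49.5 for 12 neuronal and 31.4 for 10 oligodendrocyte genes. Vessel cell markers were thus present as labelled, together with RNA of the surrounding brain tissue, neuronal genes having the highest median of these lists. Replicates are numbered here by the order of the samples within each group, as the labels give no replicate numbers. WT replicate 2 stood apart before any comparison. Its mean log2 CPM was 1.35 over 8 neutrophil genes, against -0.80 to -0.40 in the other 4 WT libraries, and it had the highest levels of several endothelial activation genes described below. APP/PS1 replicate 1 was the highest of its group for the neutrophil genes, at 0.95, against -0.64 to -0.17 in the other 4. The mean log2 CPM of 11 choroid plexus genes also varied, from 3.03 to 6.18 in APP/PS1 and from 2.20 to 6.13 in WT, so both groups held libraries with much and with little of this RNA.

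The start sites of 4 plaque-associated microglia genes that were higher in APP/PS1 are shown first. These 4 had the smallest p of their list. Cst7 encodes cystatin F, an inhibitor of lysosomal proteases. Clec7a encodes dectin-1, a phagocyte receptor of beta-glucans, Trem2 encodes a lipid receptor of microglia, and Itgax encodes the integrin CD11c. The 250 bases before each RefSeq gene start (GRCm38.p6) are written 5′ to 3′ along the gene. They lie at chr2:150570165-150570414 (plus strand) for Cst7, chr6:129472780-129473029 (minus strand) for Clec7a, chr17:48346151-48346400 (plus strand) for Trem2 and chr7:128129300-128129549 (plus strand) for Itgax. Capitals mark matches, on either strand, to the letters GAGGAA, the core bound by the myeloid factor PU.1, and TGANTCA, and no base belongs to both. TGANTCA is a loose form of the AP-1 motif that allows any base (N) at its centre, and the Trem2 match has A there.
Cst7: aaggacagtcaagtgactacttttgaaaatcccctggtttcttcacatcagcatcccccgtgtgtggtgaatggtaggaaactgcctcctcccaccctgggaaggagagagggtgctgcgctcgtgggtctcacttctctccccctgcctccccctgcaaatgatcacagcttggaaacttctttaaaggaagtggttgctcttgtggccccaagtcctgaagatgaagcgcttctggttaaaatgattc
Clec7a: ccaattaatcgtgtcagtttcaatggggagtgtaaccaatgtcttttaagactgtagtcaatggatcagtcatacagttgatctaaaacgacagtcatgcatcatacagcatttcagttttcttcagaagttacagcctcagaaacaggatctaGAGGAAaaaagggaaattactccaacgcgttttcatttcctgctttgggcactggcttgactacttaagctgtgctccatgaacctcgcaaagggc
Trem2: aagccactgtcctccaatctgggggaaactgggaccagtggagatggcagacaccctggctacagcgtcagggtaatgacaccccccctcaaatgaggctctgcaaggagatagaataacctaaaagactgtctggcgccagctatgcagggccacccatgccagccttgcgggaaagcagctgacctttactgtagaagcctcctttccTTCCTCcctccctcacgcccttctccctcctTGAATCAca
Itgax: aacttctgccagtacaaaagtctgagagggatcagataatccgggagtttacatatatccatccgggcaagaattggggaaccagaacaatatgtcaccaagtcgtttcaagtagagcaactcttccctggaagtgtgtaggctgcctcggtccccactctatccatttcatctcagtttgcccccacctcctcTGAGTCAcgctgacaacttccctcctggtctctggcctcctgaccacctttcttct
Of these windows, Clec7a and Trem2 held GAGGAA, Trem2 and Itgax held TGANTCA, and Cst7 held neither set of letters. The window of Mpeg1, a higher gene outside the lists with a smaller p than Trem2, is not shown and also held neither. RefSeq windows were found for 28 of the 33 genes that were higher in APP/PS1, 35 windows in all. GAGGAA was in 14 of these 35 windows (40%) and in 23.3% of all 32851 mouse windows of the same length. TGANTCA was in 11.4% and 6.75%, and the E-box CACGTG in 14.3% and 6.02%. These shares describe letters in short windows, and no binding was measured.

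The transgene-linked genes bear on the genotype labels. Of the 4 tested, 2 were past the threshold used over all genes (an edgeR adjusted p under 0.05), as were 0.181% of all genes. An unadjusted p under 0.05 was found for 3 of the 4 and for 3.38% of all genes. The members of this list were chosen with earlier results of these data known. These counts are therefore not independent evidence for the labels. App (ENSMUSG00000022892), the amyloid precursor protein gene, was at 1897, 2500, 2521, 2062 and 3334 CPM in APP/PS1 replicates 1 to 5. In WT replicates 1 to 5 it was at 1723, 1821, 1529, 1262 and 1499 CPM. Every APP/PS1 library was above every WT library. Mean log2 CPM differed by 0.64, with p = 0.00794 in a two-sided exact permutation test, the smallest that its 252 splits can give. In the edgeR fit over all genes the log2 change of App was 0.65 ± 0.17 (SE) with an adjusted p of 0.294, so App was not among the genes past the threshold there. Prnp (ENSMUSG00000079037), the prion protein gene, was at 682, 1000, 1108, 898 and 1418 CPM in APP/PS1 and at 436, 450, 461, 301 and 407 CPM in WT. The groups did not overlap, and the log2 change was 1.31 ± 0.17 (SE, edgeR adjusted p = 6.172e-04; exact permutation p = 0.00794). With Benjamini-Hochberg adjustment over App, Prnp and Cybb, the permutation p was 0.0119 for both genes. How reads of human transgenes align to the mouse genes is not given in the sources used here.

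The gene with the smallest p lies beside Prnp. Lamr1-ps1 (ENSMUSG00000081229) is a processed pseudogene of a ribosomal protein gene on chromosome 2, at 131904086 to 131904959 on the plus strand (GRCm38, GENCODE vM21). It ends 4968 bases before Prnp, which runs from 131909928 to 131938429 on the same strand. It was at 5.31, 5.02, 4.23, 4.90 and 5.41 CPM in APP/PS1, and was at 0 in 4 WT libraries and at 0.18 CPM in WT replicate 3. The summed counts were 311 in APP/PS1 and 2 in WT, a depth-scaled ratio of 145 with a 95% exact interval of 39.9 to 1206 for counting error only (edgeR adjusted p = 9.685e-07). Reads of such a pseudogene can be shared with its parent gene, so its level is uncertain. Prnp overlaps the gene Prn on the same strand, and its count could be split between them.

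With inhibitor, 34 of the 18753 genes were past the threshold, an adjusted p under 0.05 from the quasi-likelihood F test of edgeR (Benjamini-Hochberg over all genes), which is 0.181% of genes. Of these, 33 were higher in APP/PS1 (0.176% of genes) and 1 was lower (0.00533%). The log2 changes of the 33 ran from 0.50 to 6.79 with a median of 1.09, whereas the median over all genes tested was 0.00 and 50.6% of genes were above 0. For 31 of the 33, every APP/PS1 library was above every WT library, an arrangement found in 0.629% of all genes. The reverse arrangement was found in 0.155%. The 33 were chosen for a small p in these same libraries, which favours ranges that lie apart, so the 31 are not further evidence. Their levels were modest, and 13 of the 33 averaged under 10 CPM in APP/PS1. At an unadjusted p under 0.05 there were 634 genes (3.38%), 390 higher and 244 lower. The 10 genes with the next smallest p, from Cd53 to Ikzf1, were all higher in APP/PS1 as well. The number past the threshold depended on single libraries. It was 15 without APP/PS1 replicate 2, 17 without APP/PS1 replicate 4, 21 without WT replicate 1, 19 without WT replicate 3 and 15 without WT replicate 5, and 14 of the 34 passed in each of the 10 fits that left out 1 library. These 14 were Lamr1-ps1, Prnp, Cst7, Clec7a, Itgax, Trem2, Mpeg1, C4b, Gfap, Csf3r, Olfr111, Ctss, Ptprc and Hpgds, whereas Cd68 and Siglech passed in 1 of the 10 and Ccl3, Lag3 and Nckap1l in 2.

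**Figure D1:**
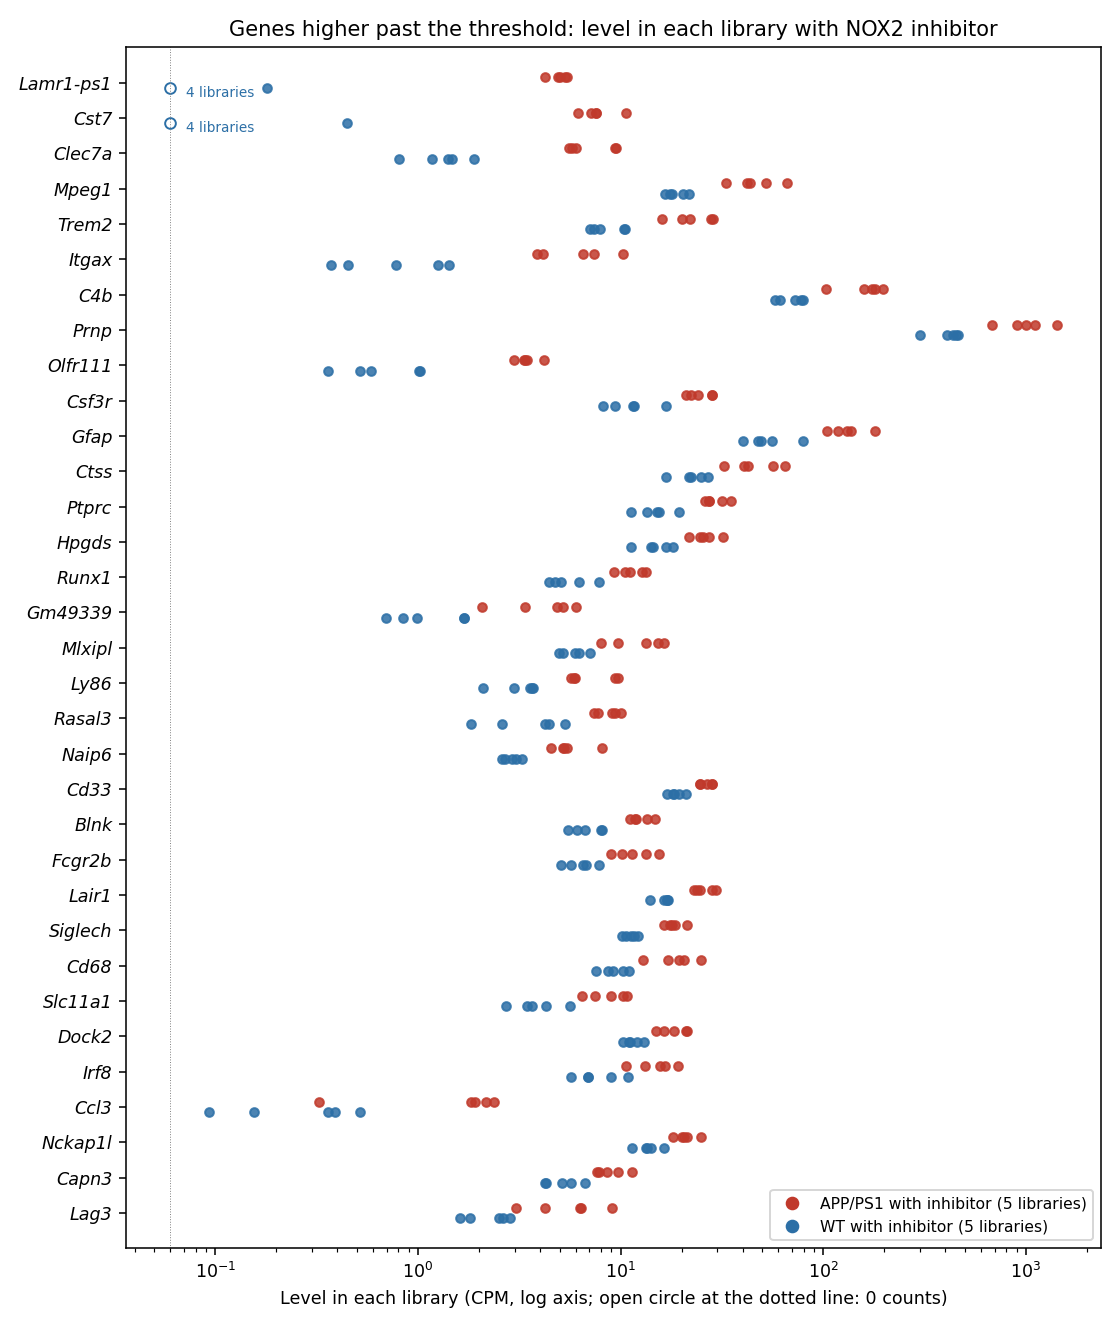
Level of each of the 33 genes higher past the threshold in each of the 10 libraries with inhibitor, in CPM on a log axis. Each point is 1 library, coloured by genotype, and open circles at the dotted line are libraries at 0 counts. The points of the genotypes are apart for all genes but Irf8 and Ccl3.

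**Figure D2:**
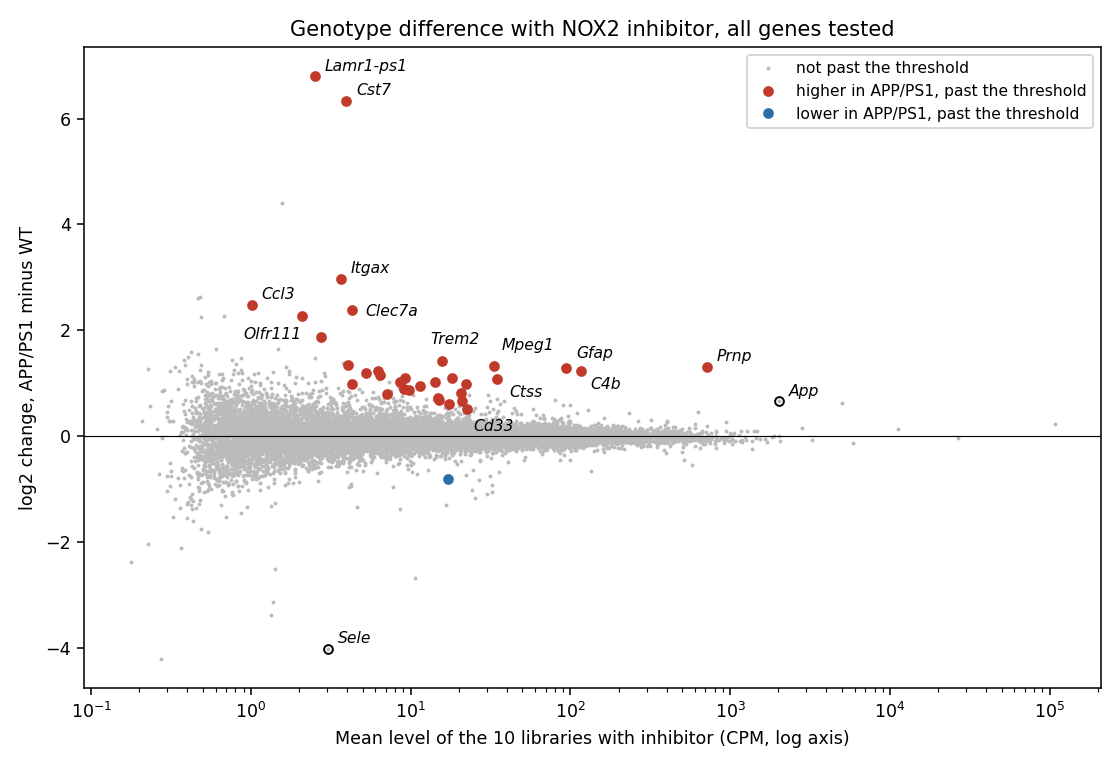
Log2 change (APP/PS1 minus WT, vertical axis) against the mean level of the 10 libraries in CPM (log axis) for all 18753 genes tested. The 33 genes higher and the 1 gene lower past the threshold are coloured, and Lamr1-ps1 and Cst7 have the largest changes of those called.

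The list of plaque-associated microglia genes held the most genes past the threshold, and was also the list with the most genes tested. Of 30 tested, 24 were higher in APP/PS1 with a median log2 change of 0.29, and 6 were past the threshold: Cst7, Clec7a, Trem2, Itgax, Cd68 and Ccl3. None was past it in the other direction. The list was compiled with earlier results of these data known and is not independent evidence of its direction. Over all genes 0.176% were past the threshold and higher. In other lists 4 of 21 leukocyte adhesion and signalling genes, 1 of 5 Fc receptor genes and 2 of 4 transgene-linked genes were past it, so the plaque list was not alone in its share. Cst7 was at 7.14, 7.53, 7.60, 6.17 and 10.6 CPM in APP/PS1. In WT it was at 0 in 4 libraries and at 0.45 CPM in replicate 3. Cst7 was thus close to absent from the WT libraries with inhibitor, with 482 summed counts in APP/PS1 and 5 in WT, a ratio of 90.2 (95% exact interval 38.4 to 279, counting error only; edgeR adjusted p = 3.210e-06). Clec7a was at 5.75, 9.45, 5.54, 5.99 and 9.34 CPM in APP/PS1 and between 0.81 and 1.88 CPM in WT, which is 2.39 ± 0.26 (SE) higher on the log2 scale (edgeR adjusted p = 1.443e-04). Itgax was at 3.85, 7.38, 4.13, 6.53 and 10.2 CPM in APP/PS1 and between 0.37 and 1.43 CPM in WT, a log2 change of 2.96 ± 0.36 (SE; adjusted p in edgeR 4.032e-04). For each of these 3 genes the lowest APP/PS1 library was above the highest WT library. Ccl3, a chemokine, was between 1.83 and 2.38 CPM in 4 APP/PS1 libraries and at 0.33 CPM in replicate 3, which lay inside the WT range of 0.09 to 0.52 CPM (log2 change 2.47 ± 0.49, SE; edgeR adjusted p = 0.0425). Cd68, a membrane protein of macrophage lysosomes, was at 19.0 CPM ± 4.44 (SD, n = 5) in APP/PS1, against 9.36 CPM ± 1.36 (SD, n = 5) in WT.

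Trem2 and the gene of an adaptor that acts after it rose. Trem2 was at 16.0, 28.7, 20.0, 22.0 and 27.8 CPM in APP/PS1 and at 7.95, 7.39, 7.09, 10.4 and 10.5 CPM in WT. The groups did not overlap, and the log2 change was 1.41 ± 0.17 (SE; adjusted p in edgeR 4.032e-04). Blnk, an adaptor downstream of the kinase SYK, rose by 0.87 ± 0.16 (SE). Trem2 and Blnk were the 2 members past the threshold of 16 TREM2 signalling genes, of which 12 were higher, with a median of 0.46. Tyrobp, the adaptor that pairs with TREM2, had a log2 change of 1.02 ± 0.24 (SE) and was not past the threshold (edgeR adjusted p = 0.173). Its ranges met, with APP/PS1 replicate 3 at 6.51 CPM and WT replicate 2 at 6.55 CPM. Among 5 Fc receptor genes, which bind antibody and start or restrain phagocytosis, all 5 were higher with a median of 0.71. The inhibitory receptor gene Fcgr2b was past the threshold (log2 change 0.89 ± 0.16, SE).

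Complement genes were higher in 16 of 20 cases, with a median log2 change of 0.42, and C4b and Itgax were past the threshold. C4b, which encodes the fourth component of the complement cascade, was at 103, 197, 158, 179 and 174 CPM in APP/PS1 and at 72.3, 61.2, 79.1, 77.2 and 58.0 CPM in WT. The lowest APP/PS1 library was above the highest WT library (log2 change 1.22 ± 0.16, SE; edgeR adjusted p = 6.172e-04). C1qa, a chain of the initiating C1q complex made by microglia, had a log2 change of 0.77 ± 0.19 (SE) with overlapping ranges. C3ar1, the receptor of the C3a fragment, had a log2 change of 0.84 ± 0.18 (SE) with ranges apart. Neither C1qa nor C3ar1 was past the threshold (edgeR adjusted p = 0.229 and 0.0680). Lysosomal enzymes and membrane proteins as a whole were near the level of all genes, with 18 of 26 higher and a median of 0.08. The exception past the threshold was Ctss, cathepsin S, a protease of antigen-presenting cells, at 47.3 CPM ± 13.03 (SD, n = 5) in APP/PS1, against 22.5 CPM ± 3.80 (SD, n = 5) in WT. Ctss overlaps the pseudogene Hmgb1-ps5 on the same strand.

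Genes of leukocyte adhesion and signalling were higher in 19 of 21 cases, with a median log2 change of 0.45, and 4 were past the threshold. These were Itgax, Ptprc, Dock2 and Nckap1l. Ptprc encodes CD45, the phosphatase found on all nucleated blood-lineage cells including microglia, and rose by 0.98 ± 0.15 (SE), from 15.0 CPM ± 2.995 (SD, n = 5) to 29.5 CPM ± 3.88 (SD, n = 5). Dock2 and Nckap1l, which drive actin remodelling in blood-lineage cells, rose by 0.68 ± 0.13 and 0.61 ± 0.12 (SE). The gap between groups was narrow for Nckap1l, whose lowest APP/PS1 library was at 18.1 CPM and highest WT library at 16.4 CPM.

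Of the 34 genes, 16 belonged to no list. Mpeg1, a pore-forming protein of macrophages, was at 33.0, 52.0, 42.2, 43.6 and 66.0 CPM in APP/PS1 and between 16.5 and 21.9 CPM in WT (log2 change 1.33 ± 0.15, SE; edgeR adjusted p = 1.443e-04). Among inhibitory receptors, Cd33, Lair1 and Lag3 rose by 0.50, 0.66 and 1.35. Cd33, a sialic acid receptor studied as a risk gene of Alzheimer's disease, had the smallest change of the 33 and a tight spread, 26.5 CPM ± 1.82 (SD, n = 5) against 18.8 CPM ± 1.55 (SD, n = 5). Irf8 and Runx1, transcription factors of myeloid development, rose by 0.95 and 1.01. For Irf8 the ranges overlapped, because APP/PS1 replicate 1 was at 10.6 CPM and WT replicate 4 at 10.9 CPM. Slc11a1, a metal transporter of the phagosome, rose by 1.15, Ly86, the partner of a B-cell and myeloid receptor, by 1.19, Naip6, of the family of inflammasome sensors, by 0.98, and Hpgds, the haematopoietic prostaglandin D synthase, by 0.82. Rasal3, which restrains RAS in blood-lineage cells, rose by 1.22. The others were Mlxipl (1.09), a glucose-responsive transcription factor, Capn3 (0.79), a calcium-dependent protease, the odorant receptor gene Olfr111 (2.27) and Gm49339 (1.87). Gm49339 overlaps Lilr4b and Lilrb4a, Irf8 overlaps Gm20388, Capn3 overlaps Ganc and Ptprc overlaps A130071D04Rik on the same strand, so their counts are uncertain. Gfap, Hpgds, Runx1, Gm49339, Mlxipl, Rasal3, Fcgr2b and Dock2 overlap a gene on the opposite strand, and the strand setting of the counting is not given in the sources used here. Lag3 was the last gene inside the threshold (edgeR adjusted p = 0.0491) and Cd53 the first outside it (0.0577).

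Markers of homeostatic microglia were higher beside these genes. All 12 were above WT in APP/PS1, with a median log2 change of 0.62 and a largest of 1.01. Siglech, a sialic acid receptor of microglia, was the 1 member past the threshold, at 18.3 CPM ± 1.82 (SD, n = 5) against 11.2 CPM ± 0.80 (SD, n = 5). The mean log2 CPM of the 12 markers ran from 4.58 to 5.22 in APP/PS1 and from 4.09 to 4.60 in WT, and their summed level from 355 to 580 CPM and from 277 to 368 CPM. P2ry12, the purinergic receptor that marks resting microglia, had a log2 change of 0.57 ± 0.19 (SE), and Cx3cr1 and Csf1r of 0.66 and 0.58. None of these 3 was past the threshold. Of the 33 higher genes, 31 had a larger change than the median of the homeostatic markers and 21 had a larger change than the largest of them. The 33 were chosen for this same change, which favours larger values, and Siglech is in both sets. Nothing is therefore read from these counts. When the mean of the homeostatic markers was entered as a covariate, 2 genes were past the threshold, Lamr1-ps1 and Cst7, and all 34 kept their direction. The median log2 change of the 33 higher genes was 0.81 with the covariate, against 1.09 without it, and with bounds set after the values were seen, 9 of the 33 kept 90% or more of their change and 3 kept under 50%. These 9 included Cst7 (6.10 with the covariate, 6.33 without), Gfap (1.196 and 1.29), Runx1 (0.99 and 1.01), Blnk (0.92 and 0.87) and Cd33 (0.47 and 0.50). The others of the 9 were Lamr1-ps1, Mlxipl, Naip6 and Olfr111. Prnp was at 0.81 with the covariate and 1.31 without it, and C4b at 0.90 and 1.22. The 3 that kept least were Lag3 (0.52 and 1.35), Ctss (0.47 and 1.08) and Ly86 (0.58 and 1.19). The markers were themselves higher in APP/PS1, so the covariate and the genotype overlap in this fit. In bulk RNA more microglia and more of these transcripts per microglial cell cannot be told apart, and the part of microglial content in each change was not tested.

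Among 14 reactive astrocyte genes, Gfap and C4b were past the threshold. In all 9 of the 14 were higher, and the median log2 change was 0.10. Gfap, the intermediate filament of astrocytes, was at 119, 136, 104, 131 and 180 CPM in APP/PS1 and at 40.3, 79.7, 49.2, 56.0 and 47.7 CPM in WT. Every APP/PS1 library was above every WT library, with a log2 change of 1.29 ± 0.19 (SE; adjusted p in edgeR 0.00311). The 14 genes of astrocyte endfeet had a median of 0.04 and none was past the threshold. Aqp4, the water channel of endfeet, had a log2 change of 0.43 ± 0.22 (SE) with overlapping ranges. S100b, a calcium-binding protein of astrocytes, had a difference of 0.55 ± 0.15 (SE) on the log2 scale and did not pass (edgeR adjusted p = 0.359). Without WT replicate 2, which at 12.8 CPM was above the 7.48 to 8.35 CPM of the other WT libraries, the change of S100b was 0.73 and passed (edgeR adjusted p = 0.0171).

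The genes of NOX2 itself did not pass the threshold. Cybb (ENSMUSG00000015340), the catalytic subunit that the peptide is designed to block, was at 7.01, 7.68, 3.69, 3.99 and 7.29 CPM in APP/PS1 and at 5.05, 6.42, 4.58, 8.32 and 3.26 CPM in WT. The groups overlapped throughout, and mean log2 CPM differed by 0.10 (exact permutation p = 0.770, two-sided). Of 10 NADPH oxidase subunit genes tested, 8 were higher with a median of 0.37. Ncf1, which encodes the cytosolic organiser p47phox, had a log2 change of 0.72 ± 0.17 (SE) with APP/PS1 wholly above WT, and did not pass (edgeR adjusted p = 0.173). Antioxidant genes and targets of the stress factor NRF2 lay at the level of all genes. Of 27 tested, 13 were higher, the median was -0.01, none was past the threshold and none had an unadjusted p under 0.05. The peptide acts on protein assembly, which RNA levels do not measure.

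Csf3r, the receptor of granulocyte colony-stimulating factor, was the 1 gene of the neutrophil list past the threshold. It was at 22.1, 28.1, 21.1, 28.2 and 24.2 CPM in APP/PS1 and at 11.5, 16.7, 11.7, 8.19 and 9.40 CPM in WT, a log2 change of 1.09 ± 0.15 (SE; adjusted p in edgeR 0.00186). The other members were scarce. The neutrophil genes Ly6g, Camp and Retnlg had 1, 9 and 49 counts in all 10 libraries and were not tested. S100a8, an abundant neutrophil protein, was at or under 0.47 CPM in 8 libraries and reached 1.52 CPM in APP/PS1 replicate 1 and 3.18 CPM in WT replicate 2. Of the 8 neutrophil genes tested, 3 were higher in APP/PS1 and the median log2 change was -0.24. WT replicate 2 was the highest WT library for Csf3r as well, and was under every APP/PS1 library. Without WT replicate 2 the change of Csf3r was 1.27 (edgeR adjusted p = 1.152e-04).

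No gene on the lists of vessel wall genes was past the threshold. Of 14 basement membrane genes 3 were higher, with a median of -0.03. Among 15 pan-endothelial genes the median was 0.02, among 20 blood-brain barrier genes -0.00, and among 18 pericyte and smooth muscle genes -0.01, with none past it. Cldn5, the main tight junction protein of brain endothelium, was at 246 CPM ± 94.2 (SD, n = 5) in APP/PS1, against 277 CPM ± 46.2 (SD, n = 5) in WT. Pecam1 had a log2 change of -0.12 ± 0.17 (SE), and Pdgfrb, the receptor that marks pericytes, of -0.09 ± 0.14 (SE). The APP/PS1 libraries varied more than the WT libraries in these genes, with Cldn5 between 165 and 393 CPM in APP/PS1 and between 226 and 334 CPM in WT. Perivascular macrophage markers, 11 in all, had a median of 0.03 and none was past the threshold.

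**Figure D3:**
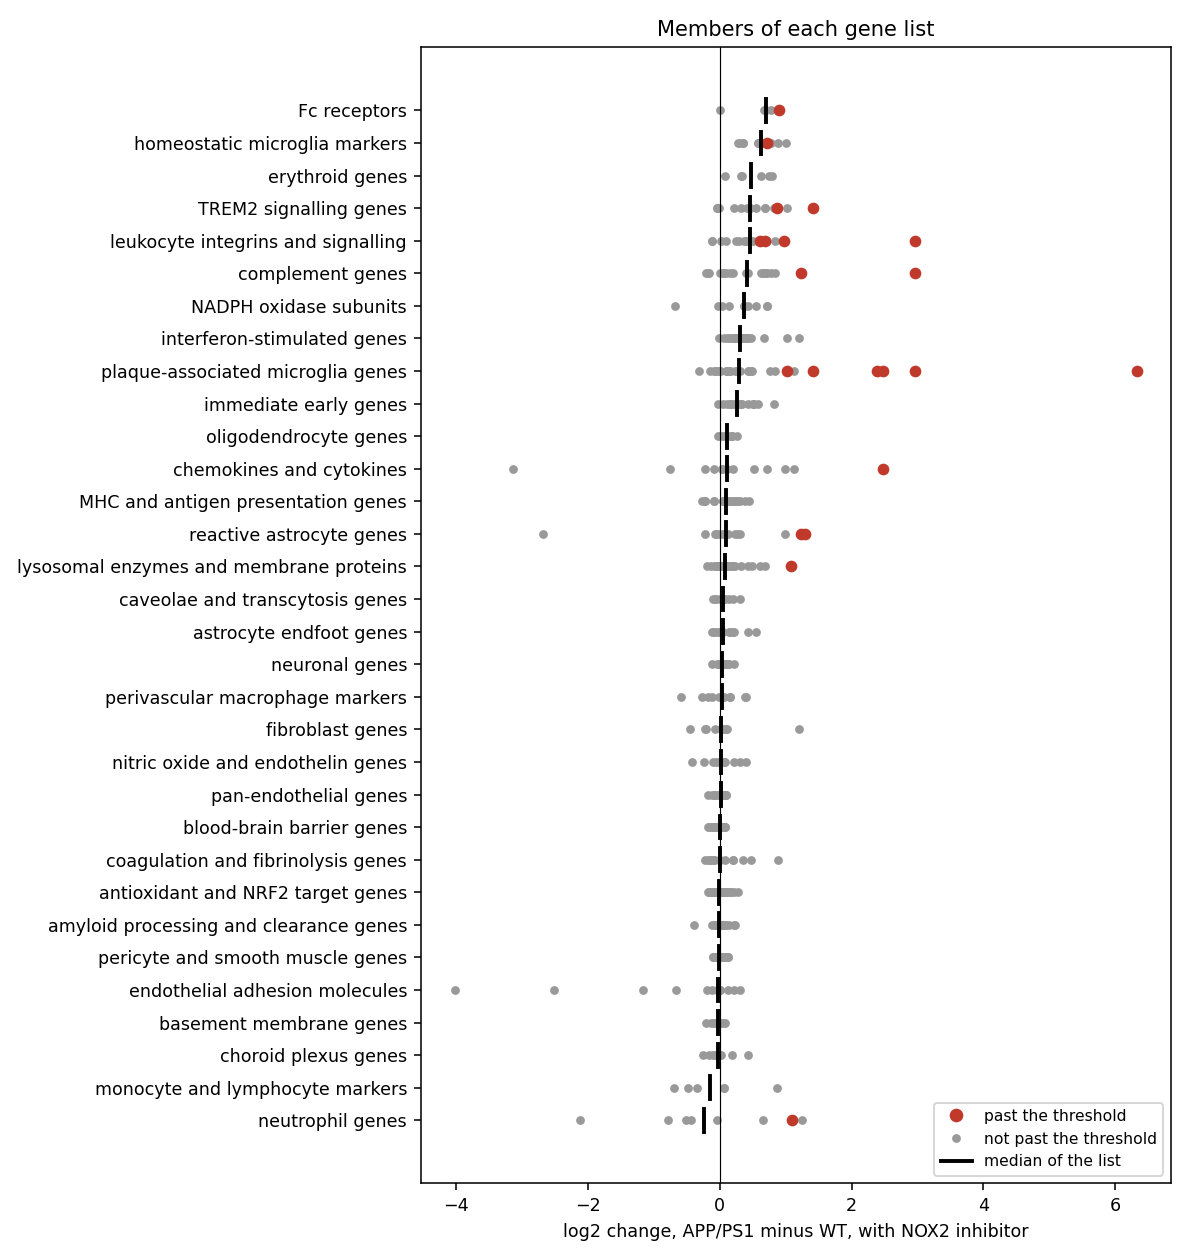
Log2 change with inhibitor (APP/PS1 minus WT, horizontal axis) of the tested members of every gene list but the transgene-linked genes. Each point is 1 gene, coloured where past the threshold, and the bar is the median of the list. Medians are 0.62 for homeostatic microglia markers, 0.29 for plaque-associated microglia genes and near 0 for endothelial, barrier and pericyte genes.

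No interferon-stimulated gene was past the threshold. Of 24 tested, 23 were higher, with a median log2 change of 0.31, and Mx1, an antiviral GTPase, had the largest change, 1.21 ± 0.29 (SE; adjusted p in edgeR 0.201). The mean log2 CPM of these genes overlapped between groups, from 3.31 to 4.14 in APP/PS1 and from 2.92 to 3.82 in WT. Immediate early genes, transcription factors switched on within minutes of stimulation, were higher in 18 of 19 cases with a median of 0.26, and their group ranges also overlapped. None of these 19 was past the threshold. Genes of antigen presentation by MHC molecules had a median of 0.10 over 19 genes, with none past it. Erythroid genes, which mark blood left in the vessels, were higher in 6 of 6 cases with a median of 0.47 and none past it, and their mean log2 CPM overlapped, from 1.65 to 2.79 in APP/PS1 and from -0.48 to 2.89 in WT. Monocyte and lymphocyte markers were scarce, and of 6 tested 3 were higher. The lists of caveolae, nitric oxide and endothelin, fibroblast, oligodendrocyte, neuronal, choroid plexus, amyloid processing and coagulation genes had medians from -0.03 to 0.11 with no gene past the threshold.

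Endothelial adhesion molecules, which capture leukocytes from the blood, were lower in 11 of 15 cases, with a median log2 change of -0.03 and none past the threshold. The largest changes came from 1 library. Sele, E-selectin, was at 27.7 CPM in WT replicate 2 and between 0.13 and 0.59 CPM in the other 9 libraries, which gave a log2 change of -4.02 ± 1.24 (SE; adjusted p in edgeR 0.659). Selp, P-selectin, had a log2 change of -2.51, with 10.8 CPM in the same library and at most 0.81 CPM in the others. Icam1 and Vcam1, the ligands of leukocyte integrins, were at 97.6 and 350 CPM in that library, and had changes of -1.17 and -0.66. Without WT replicate 2 the changes were 0.73 for Selp, -0.28 for Icam1 and -0.19 for Vcam1, and Sele no longer passed the expression filter. The neutrophil-attracting chemokine Cxcl1 and the acute-phase genes Lcn2 and Serpina3f (the last chosen after its values were seen) had changes of -3.13, -2.68 and -3.39. Lcn2 was high in WT replicates 2 and 3, at 45.2 and 35.01 CPM, against 1.27 to 5.21 CPM in the other 8 libraries. Without WT replicate 2 the change was -2.02 for Lcn2 and -1.93 for Serpina3f, and Cxcl1 was not tested. None of these genes was past the threshold with or without that library. Without both it and APP/PS1 replicate 1, the other library high in neutrophil genes, 30 genes were called over all genes, of which 24 were among the 34.

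**Figure D4:**
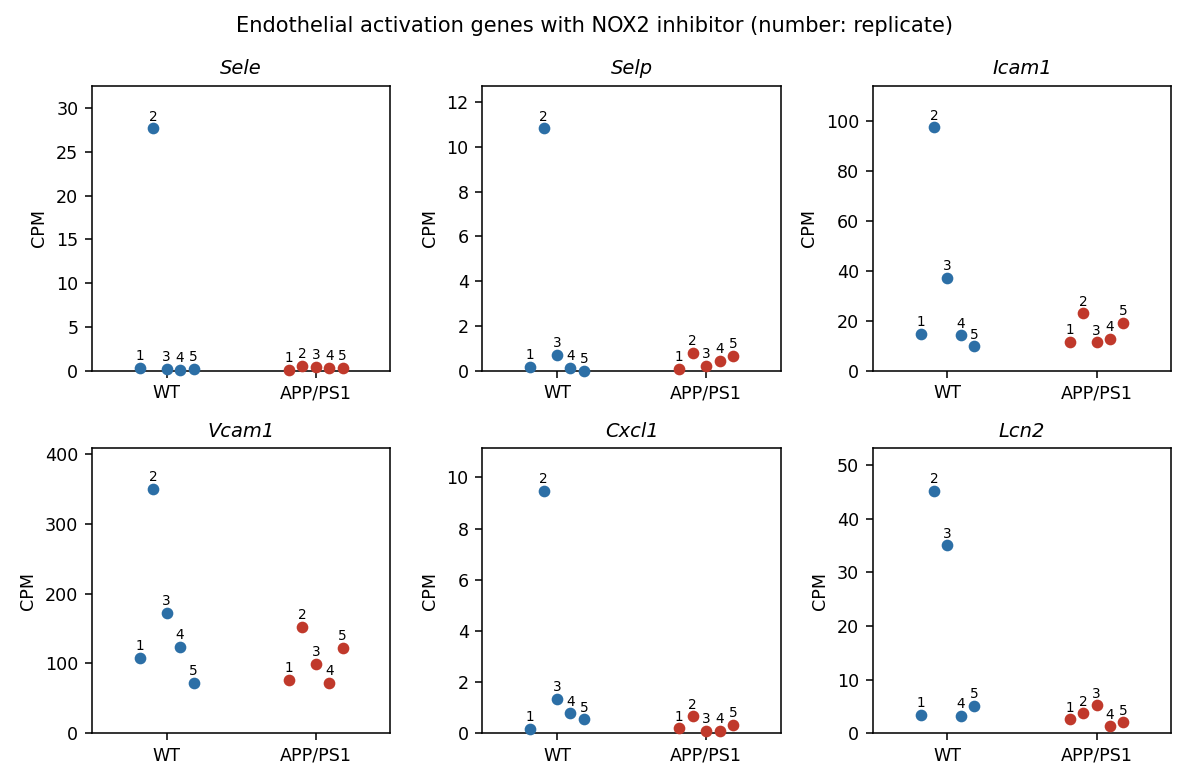
Levels in CPM of endothelial activation genes in the 10 libraries with inhibitor, by genotype. Each point is 1 library and the number is its replicate. WT replicate 2 is the highest in Sele (27.7 CPM), Selp (10.8 CPM), Icam1, Vcam1, Cxcl1 and Lcn2.

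The 34 genes were then read in the libraries with control peptide, which are not part of the contrast that chose them. These libraries did enter the expression filter, the scaling and the estimate of dispersion of that fit. In the 10 libraries with inhibitor alone 23 genes were called, 22 of them among the 34. The reading is therefore not fully independent of the choice. Of the 33 higher genes, all 33 were also higher in APP/PS1 with control peptide, with a median log2 change of 0.98 and a range of 0.43 to 6.27. All 33 had an unadjusted p under 0.05 there in the higher direction, as did 1.82% of all genes. For 32 of them both APP/PS1 libraries were above all 5 WT libraries, which held for 3.60% of all genes. With adjustment over all genes 10 of the 33 passed, and 10 genes passed in total (0.0533%), a comparison that rests on 2 APP/PS1 libraries. The mean log2 CPM of the 33 genes was 3.95 and 4.14 in the APP/PS1 libraries with control peptide and 3.72 to 4.18 in those with inhibitor. In WT it was 2.58 to 2.83 and 2.48 to 2.67. The inhibitor and control peptide libraries of each genotype thus overlapped in this mean, and the genotypes did not. Among the libraries with inhibitor that separation follows from the choice of the genes and is not a result.

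Whether the genotype difference depended on the peptide was tested by the interaction, the change with inhibitor minus the change with control peptide. In the same edgeR fit 0 genes passed (0% of genes), and 158 had an unadjusted p under 0.05. Of the 33 higher genes, 21 had a larger change with inhibitor and 12 a smaller one. Because they were chosen for their change with inhibitor, which favours larger changes there, nothing is read from this split. Trem2 had log2 changes of 1.41 with inhibitor and 1.31 with control peptide, an interaction of 0.10 ± 0.27 (SE). Clec7a had 2.39 and 2.82, an interaction of -0.44 ± 0.41 (SE), and Gfap had 1.29 and 1.05, an interaction of 0.24 ± 0.31 (SE). Cst7 had 6.33 and 4.96, with an interaction of 1.37 ± 0.93 (SE). Over the 34 genes the standard error of the interaction had a median of 0.27 and reached 1.09. An interaction of the size of these standard errors was not detectable with this number of libraries. Over all genes, interactions of several times their own standard error did not pass either. That 0 genes passed therefore does not show that the genotype difference was equal under the peptides.

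**Figure D5:**
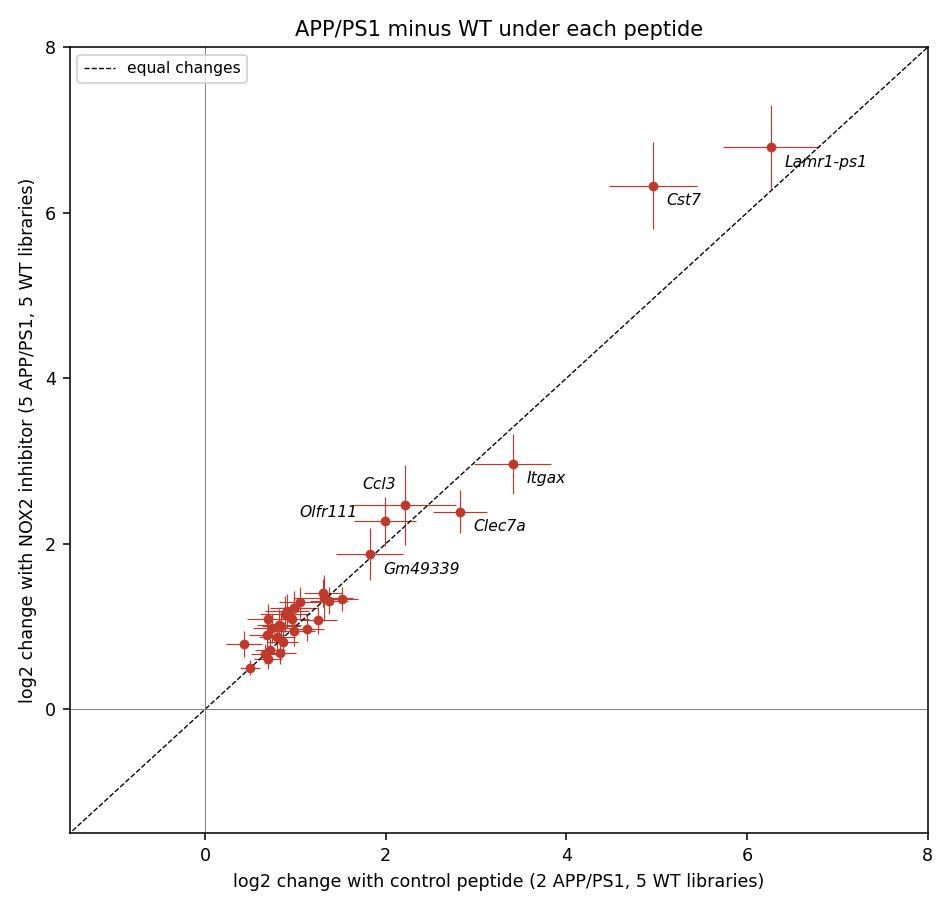
Log2 change (APP/PS1 minus WT) with inhibitor (vertical axis) against that with control peptide (horizontal axis) for the 33 genes higher past the threshold with inhibitor. Bars are 1 SE on each axis, the dashed line marks equal changes. The genes were chosen on the vertical axis, and all 33 are above 0 on both axes.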

How the data were processed

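The authors deposited 1 table of raw counts per Ensembl gene. The submitters' processing notes name cutadapt, STAR, HTSeq and DESeq2 and the builds mm10 and GRCh37, with no role or version; which build was used for counting and the strand setting are not given in the sources used here. Per the labels' protocols, microvessels were collected from cortex by dextran centrifugation, and libraries were made with a stranded mRNA kit after depletion of ribosomal RNA. Columns were matched to samples by their names, and 20 columns that match no sample were not used.

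Counts of all 17 libraries entered edgeR 4.0.16 (R 4.3.3) in a model with 1 mean per group and no covariate, as neither batch nor sex nor pairing is labelled. Genes were kept with filterByExpr by group, which left 18753, so that a gene present in 1 group alone could enter. TMM scaling was followed by the quasi-likelihood F test, with Benjamini-Hochberg adjustment over all genes and a threshold of 0.05. Standard errors came from the estimate and its F statistic. Log2 levels used a prior count of 2. App, Prnp and Cybb were also compared by a two-sided exact permutation test. Reads carry no molecular identifiers and are not independent molecules, so intervals of ratios hold for counting error alone, and 3 counts correspond to 0.19 to 0.39 CPM over the 10 libraries. No pair of libraries was identical: the 20 pairs of the same group had a chi-square of 12.5 to 88.1 per degree of freedom. Gm26917 and Gm42418, which are linked to ribosomal RNA, took 4.76% to 15.99% of counts.

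The members and the 33 gene lists were chosen with earlier results of these data known. The rule names the transgene-linked genes and Cybb, every called gene, leading members of each list, the 10 next genes and the 3 leading interaction genes; some of these are not reported here. Any other gene named, such as Serpina3f, was chosen after its values were seen. Symbols came from a gene name table, which matched 42250 of 42687 IDs. Gene positions are from GENCODE vM21 and promoter sequences from RefSeq. Alternatives were the DESeq2 size factors, no count filter, DESeq2 1.42.0, limma 3.58.1 voom with quality weights, the 10 libraries alone, a microglia covariate, removal of Gm26917 and Gm42418, another prior count for the permutation test, each library left out, and, added after seeing the data, 2 libraries left out together. The fit was tested on simulated counts.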

Additional observations from a re-analysis of the deposited data

Results flagged for a closer look

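In 18 of 188 comparisons of 1 library with the other 4 of its group, the highest or lowest library stood apart by a gap of more than 0.71 of the group's range (Dixon's 95% value for 5 libraries). Chance gives about 1 in 20, or 9.4 of 188, for independent comparisons of normally distributed values that were not chosen beforehand. Here genes and lists were chosen with earlier results known, and list means share genes with the single-gene values. The 18 are therefore not read as an excess over 9.4. WT replicate 2 accounted for 11 of the 18. Its mean log2 CPM was 1.35 over the neutrophil genes (others -0.80 to -0.40), 0.69 over the monocyte and lymphocyte markers (others -0.12 to 0.07), 6.33 over the endothelial adhesion molecules (others 5.07 to 5.41) and 3.92 over the chemokines and cytokines (others 2.83 to 3.08). Among genes it was at 27.7 CPM for Sele (others 0.13 to 0.28), 10.83 CPM for Selp (others up to 0.72), 9.47 CPM for Cxcl1 (others 0.19 to 1.35) and 8.56 CPM for Serpina3f (others 0.23 to 2.07). It was at 3.18 CPM for S100a8 (others 0.26 to 0.47), 12.77 CPM for S100b (others 7.48 to 8.35) and 2.46 CPM for Cxcr2, a neutrophil chemokine receptor (others up to 0.28). Neutrophil, adhesion and chemokine genes were thus high in the same WT library.

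The remaining 7 were spread over other libraries. WT replicate 3 was the 1 library of the 5 of WT with inhibitor that had any counts of Lamr1-ps1 (0.18 CPM) and of Cst7 (0.45 CPM). WT replicate 5 was low for Lair1, at 13.99 CPM (others 16.4 to 17.1), and for the Fc receptor genes, with a mean log2 CPM of 2.72 (others 3.08 to 3.23). APP/PS1 replicate 1 was high for S100a8, at 1.52 CPM (others 0.16 to 0.44). APP/PS1 replicate 3 was low for Ccl3, at 0.33 CPM (others 1.83 to 2.38), and APP/PS1 replicate 4 was high for Naip6, at 8.08 CPM (others 4.55 to 5.43).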

How the results depend on the processing

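The 34 genes past the threshold kept their direction in all 18 alternatives in which each could be tested; Ccl3 could not be tested in the fit of the 10 libraries alone. In number, the calls were 34 with the DESeq2 size factors, 34 without Gm26917 and Gm42418, 38 with no count filter, 47 with limma voom, 23 in the 10 libraries alone and 30 with both libraries high in neutrophil genes left out, but 61 with the DESeq2 Wald test and 2 with the homeostatic microglia score as a covariate, where the median log2 change of the 33 higher genes was 0.81 in place of 1.09. Leaving out 1 library gave 15 to 38. The 2 genes past the threshold in all 18 alternatives were Cst7 and Lamr1-ps1. The interaction gave 0 genes in every alternative run for it, the DESeq2 Wald test and limma voom included. Genes not past the threshold changed sign in some settings. With the microglia covariate the changes were -0.22 for Cybb, -0.23 for Aqp4 and -0.026 for C1qa. For P2ry12, Cx3cr1 and Csf1r they were -0.029, -0.066 and -0.044. These 3 genes are among the markers averaged in the covariate, so their small changes follow from its construction. For the other sign changes the cause was not tested. Selp was at 0.68 with limma voom and 1.06 with both libraries left out. With 1 library left out, the log2 change of Selp ran from -2.88 to 0.73, the log2 change of S100a8 from -1.76 to 0.78, the log2 change of Cybb from -0.011 to 0.31, and the difference in mean log2 CPM of Cybb from -0.065 to 0.26. No paired analysis was possible because the labels give no pairing of the libraries. Depth limits the scarce genes, for which 3 counts are up to 0.39 CPM.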
